A study of Mus musculus with 12 samples.

Results

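Old and young blood stem cells that carry the surface receptor IL27RA were compared gene by gene. IL27RA is the signalling chain that, with gp130, forms the receptor for the cytokine IL27. The comparison used 6 of the 12 RNA sequencing libraries of the series. All 6 were hematopoietic stem cells from C57BL/6 mouse bone marrow, sorted as IL27RA+: 3 libraries from mice of 28 months (old) and 3 from mice of 2 months (young). The other 6 libraries, of IL27RA- stem cells at the same ages, helped to decide which genes were tested and to estimate the spread of each gene, and their values are set side by side near the end. Each library was made by Smart-Seq2, a full-length amplification method, from 50 cells collected by flow cytometry. No genetic change or treatment is named for any group, and the markers used to gate stem cells were not among the labels. The labels do not state whether each library was a different mouse. The p-values below therefore cover the spread among these libraries alone, and that spread may be technical.

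Hematopoietic stem cells keep the blood supplied for life, and most of them rest outside the cell cycle. In old mice the phenotypic stem cell pool is known to grow while each cell rebuilds blood less well, with more platelet and myeloid and less lymphoid output. Expression of platelet genes such as Vwf, of the selectin Selp and of the aldehyde dehydrogenase Aldh1a1 is among the known marks of aged stem cells.

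Values are normalized counts, the reads of a gene divided by the library's size factor. Differences are old minus young on the log2(normalized count + 1) scale, where genes with few reads show less than their full change. Reads in genes were 16.5, 13.5 and 11.7 M in the young libraries and 16.7, 16.4 and 13.6 M in the old ones. A floor of 3 reads in a library corresponded to 2.77 to 3.76 normalized counts. Old libraries were more alike than young ones. Their values correlated across genes with r of 0.919 to 0.923 among the old, 0.882 to 0.900 among the young and 0.872 to 0.913 between the ages; genes are not independent replicates.

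The sorted receptor's own transcript was present in all 12 libraries, IL27RA- ones included. Il27ra stood at 887, 1253 and 1122 normalized counts in the young libraries, and at 1148, 1498 and 1235 in the old. IL27RA- libraries had 1418, 711 and 1564 in young and 1075, 1430.2 and 1632 in old cells, which overlap the IL27RA+ values. The age groups of IL27RA+ cells overlapped, and the difference was 0.26 ± 0.32 (SE), with a limma adjusted p of 0.908. An exact two-sided permutation test of 3 against 3 libraries gave p = 0.3, where the smallest possible value is 0.1. All 25 genes of a list of stem cell gate and identity markers (among them Kit, Procr, Hlf and Mecom) were measured in both ages, and none of the 25 passed the test. Their summed level was 136344.5 to 144504 normalized counts in young and 139621 to 152290.4 in old libraries, and none of them was at 0 throughout. Slamf1, which encodes the stem cell surface marker CD150, was closest to the threshold, at 407, 342 and 816 in young and 1406, 1770.2 and 1297 in old libraries (1.61 ± 0.36, adjusted p = 0.0766).

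Of 20457 genes in the table, 14723 reached 10 normalized counts in at least 3 of the 12 libraries and were tested. Old and young IL27RA+ stem cells differed in 62 of these 14723 genes, 0.421% (limma, adjusted p under 0.05, Benjamini-Hochberg over all genes). Expression was higher in old cells for 51 genes (0.346%) and lower for 11 (0.0747%). At an unadjusted p under 0.05 there were 1309 genes. The median log2 difference was 3.11 among the higher genes (range 1.06 to 9.95) and 1.98 in size among the lower ones (1.03 to 7.18), while the median of all genes was 0.05. In all 62 genes every old library lay outside the young range. Over all genes tested, 9.11% had all old libraries above the young ones and 7.8% had them below, 16.9% in either direction. The test called 37 genes (0.251%) when only the 6 IL27RA+ libraries set the spread, and 24 of these were among the 62. Limma voom on reads recovered from the deposited values called 13 genes, 12 of them among the 62.

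The count rested on all 3 libraries of each age. It was 51, 25 and 40 without young replicates 1, 2 and 3, and 11, 4 and 4 without old replicates 1, 2 and 3. With single IL27RA- libraries left out it moved as far as 97 (without young IL27RA- replicate 2) and 31 (without old IL27RA- replicate 2). Aldh1a1, Clca1, Plscr2 and Ebi3 were called without each of the 6 libraries in turn, and the other 58 were not called without at least 1 of them.

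**Figure D1:**
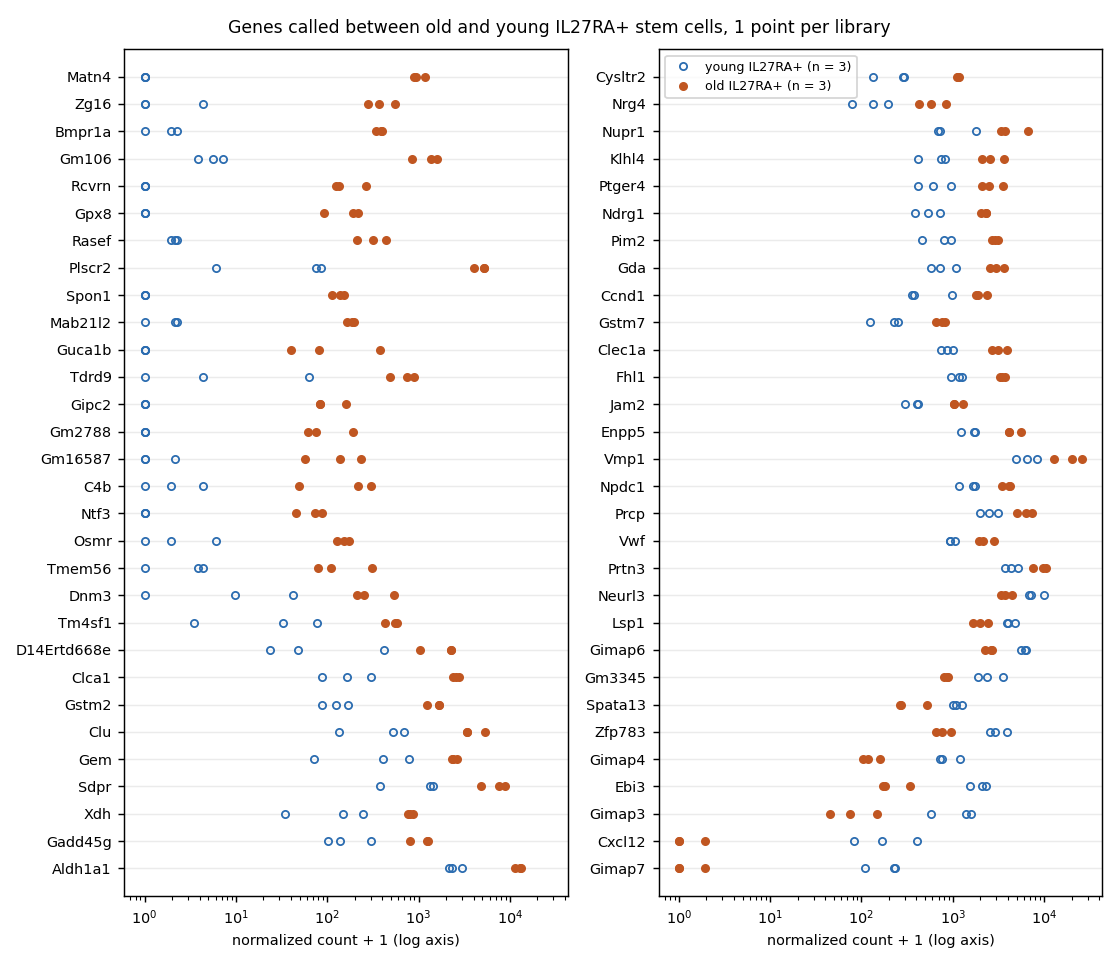
Each row is 1 of 60 of the 62 called genes, ordered by its difference from the highest in old (top left) to the lowest in old (bottom right). Points are single libraries on a log axis of normalized count + 1, open for young and filled for old. The groups do not overlap in any of the 60 rows, and Matn4, Rcvrn, Gpx8, Spon1, Guca1b, Gipc2, Ntf3 and Gm2788 sit at 0 in all 3 young libraries.

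Of 40 genes reported to be higher in aged stem cells, all of them tested, 15 were called higher in the old IL27RA+ cells and 0 lower. Over all genes, 0.346% were called higher and 0.0747% lower. The list's median difference was 1.65, against 0.05 for all genes, and 34 of the 40 had every old library above every young one (9.11% of all genes did). The fit on the 6 libraries alone called 8 genes of the list, 7 of them among the 15. Voom called 6, 5 of them among the 15. The list's count of called genes was 10, 10 and 8 without young replicates 1, 2 and 3, and 4, 3 and 3 without old replicates 1, 2 and 3. Without old IL27RA- replicate 2 it was 7. The list was gathered from genes already reported to be higher in aged stem cells, and it was chosen with earlier results of these data known. It is therefore not independent evidence of their direction or of the share called.

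Aldh1a1, which oxidises retinaldehyde and other aldehydes, had 2986, 2170.3 and 2299 normalized counts in the young libraries. It had 11483, 12956 and 13257 in the old ones, 5.06 times the young mean. The old values lay far above the young range, with a difference of 2.35 ± 0.24 and an adjusted p of 0.00109, the smallest of the comparison together with Clca1. Clca1, whose current name is Clca3a1, belongs to the calcium-activated chloride channel regulators. Its values were 86.5, 301 and 166 in young and 2582, 2764 and 2408 in old libraries, a difference of 3.98 ± 0.42. Plscr2, of the phospholipid scramblase family, had 74.3, 84.1 and 5.02 in young and 5196, 4011 and 5188 in old cells (7.14 ± 0.82, adjusted p = 0.00143). Young replicate 3 was the lowest of the 3 for Plscr2, and its old to young ratio of means was 88.1.

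Clusterin (Clu), a secreted chaperone on the same list, rose from 685, 134 and 518 in young to 3358, 3418 and 5299 in old libraries, 9.03 times on the means (3.44 ± 0.49, adjusted p = 0.0104). Nupr1, a stress-induced nuclear protein, rose from 731, 1777 and 682 to 3356, 6642 and 3767 (2.19 ± 0.41). The membrane protein Tm4sf1 rose from 32.0, 76.1 and 2.51 to 549.8, 586 and 425 (4.64 ± 0.91, adjusted p = 0.0425). The young libraries spread over an order of magnitude for this gene, and the old ones did not. In the 6-library fit the adjusted p of Tm4sf1 was 0.1775. Jam2, a junctional adhesion molecule, rose by 1.61 ± 0.32, the LIM domain protein Fhl1 by 1.64 ± 0.24, the lysosomal peptidase Prcp by 1.31 ± 0.23, Enpp5 by 1.57 ± 0.31 and Klhl4 by 2.10 ± 0.38.

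Members of the list that missed the threshold included some large differences with wide errors. Selp, the selectin that platelets and endothelium use to bind leukocytes, had 147, 201 and 263 in young and 4679, 4728 and 6329 in old libraries. Its groups were 25.8-fold apart on the means, but its difference of 4.71 ± 1.23 had an adjusted p of 0.157. In the IL27RA- libraries, which enter its error, young values ran from 3.18 to 584. Gpr183, a receptor for oxysterols, was similar, with 6.58, 381 and 51.4 against 1427, 1593 and 3101 (5.17 ± 1.20, adjusted p = 0.0922). Several immediate early genes of the list did not separate the ages. Fos was at 0.940, 0 and 1492 in young and 167, 254 and 41.0 in old libraries, and Egr1, Fosb, Junb and Ier2 overlapped too.

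A further set of genes had almost no reads in young cells. Of the 51 higher genes, 8 had no read in any young library and 5 had 1 to 3 reads over the 3 together. Such genes could pass the filter and the test only through libraries where they were present, and 7 of the 13 passed in the 6-library fit. Folds for genes at 0 are lower bounds against a floor of 3 reads per library. Ratios for genes with 1 to 3 reads carry exact (Clopper-Pearson) 95% intervals from the reads of both ages. Intervals and bounds account for counting error and nothing else, since the reads carry no molecular identifiers. Whether fewer cells expressed such a gene or each cell held less of its RNA cannot be told apart in pools of 50 cells.

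Matn4 encodes matrilin-4, an adaptor protein of the extracellular matrix. It had 0 reads in the young libraries and 938, 882 and 1167 normalized counts in the old. The old mean was at least 299-fold above the young floor, with a difference of 9.95 ± 1.36 (SE) and an adjusted p of 0.00862. Matn4 had the largest difference of the 62 genes on the log2(normalized count + 1) scale. Of the 6 fits that each left out 1 library, 4 called it. Spon1, another matrix protein (spondin 1), also had 0 young reads and 139, 111 and 150.0 in old libraries, at least 40.0-fold (7.06 ± 1.44). At an adjusted p of 0.0498 it was the last gene inside the threshold, and Rhoj and Tnip3, both at 0.0508, were the first outside.

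Bmpr1a encodes a type I receptor for bone morphogenetic proteins. It had 0.940, 0 and 1.25 normalized counts in the young libraries, 2 reads in all, and 384, 340.1 and 397 in the old ones. The old values lay within a narrow band, and the ratio of 511 had a counting interval of 141 to 4222 (7.84 ± 1.18, adjusted p = 0.0123). No other gene of the BMP and TGF-beta list was called, 1 of 28 tested, where 0.421% of all genes were. The list's median was 0.08. Id2, a target of BMP signalling, had 173, 251 and 255 in young and 864, 989 and 533 in old libraries (1.78 ± 0.49, adjusted p = 0.187), and the ligand Tgfb3 had 14.1, 1.14 and 0 and 63.8, 71.8 and 118 (4.70 ± 1.38, adjusted p = 0.248).

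The remaining genes of this kind have no single role. Gpx8, a glutathione peroxidase of the endoplasmic reticulum, was at 0 in young and 190.4, 218 and 90.2 in old libraries, at least 49.9-fold. The lectin Zg16 had 0, 3.41 and 0 against 277, 366 and 553, a ratio of 354 with an interval of 121 to 1719. Rasef, a Rab-like GTPase, had 0.940, 1.14 and 1.25 against 313, 209.8 and 437. Both were absent or nearly so from every young library. The calcium sensors Rcvrn and Guca1b, best known from photoreceptors, had no young reads, and old values of 125, 262 and 134 and of 376, 39.3 and 79.7. The old libraries were far apart for Guca1b, and it was not called in any fit that left out 1 of the 6. Ntf3, the growth factor neurotrophin 3, had no young reads and 44.4, 86.2 and 72.7 in old libraries, at least 20.3-fold. Gipc2 was at least 32.4-fold higher, and Mab21l2 had 0, 1.14 and 1.25 against 186, 193 and 163. Gm106, whose current name is Sbspon and which falls outside the naming rule as a predicted symbol, had 2.82, 4.55 and 6.27 against 841, 1373 and 1587; it encodes a protein with somatomedin B and thrombospondin domains. The complement component C4b (0.940, 3.41 and 0 against 219, 47.9 and 299) and Tmem56 (2.82, 3.41 and 0 against 108, 307 and 77.3) had 4 and 6 young reads. The germ line helicase gene Tdrd9 (0, 3.41 and 61.4 against 755, 486 and 895) and the dynamin gene Dnm3 (41.4, 0 and 8.78 against 250.4, 540.3 and 209.8) had 52 and 51, most of them in 1 young library. The adjusted p of these 4 genes ran from 0.0419 to 0.0488, close to the threshold, and none of them passed in the 6-library fit. The predicted genes Gm2788 and Gm16587 were called higher as well.

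Ptger4, a receptor for prostaglandin E2, rose from 951, 608 and 410.1 to 2482, 3573 and 2105 (2.10 ± 0.34, adjusted p = 0.0144). It was the only called gene among 31 tested on the list of niche signal receptors, where 0.421% of all genes were called. The list's median was -0.14. Cysltr2, a receptor for cysteinyl leukotrienes, rose from 295, 134 and 286 to 1102, 1161 and 1138 (2.33 ± 0.40). Both bind lipid mediators made from arachidonic acid, and neither pair of groups overlapped. The EGF family ligand Nrg4 rose from 77.1, 134 and 194 to 579, 842 and 429 (2.22 ± 0.45). The C-type lectin receptor Clec1a rose by 1.88 ± 0.32. Of these 4 genes the 6-library fit kept Clec1a, with an adjusted p of 0.0397, and gave 0.066 for Ptger4 and Cysltr2 and 0.156 for Nrg4.

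Of 12 genes tested for the IL27 and gp130 receptor family, 1 was called higher (Osmr) and 1 lower (Ebi3). The shares over all genes were 0.346% and 0.0747%. Ebi3 encodes a secreted subunit that pairs with the Il27 product to make IL27. Its level fell from 1551, 2307 and 2094 normalized counts in young to 343, 178 and 171 in old libraries. The groups were far apart, and the difference was -3.16 ± 0.35 (SE), with an adjusted p of 0.00131. Ebi3 also passed with voom (adjusted p = 0.0198). Il27 itself, which encodes the other subunit, had 136, 411 and 30.1 in young and 66.5, 271 and 148 in old libraries, so its groups overlapped (0.21 ± 0.91, adjusted p = 0.974).

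Osmr, the oncostatin M receptor that also pairs with gp130, had 0.940, 0 and 5.02 in young and 172, 125 and 152 in old cells. It had 5 reads in all young libraries together, and its difference of 6.04 ± 1.13 had an adjusted p of 0.0341 (0.093 in the 6-library fit). The shared chain Il6st (gp130) had 491, 370.4 and 370.0 against 566, 659 and 655, with no overlap and an adjusted p of 0.912. No gene of the JAK, STAT and SOCS list was called, of 23 tested. The 6-library fit and a pseudocount of 10 each called 1 gene of the list lower. Without young IL27RA- replicate 2, 1 gene was called higher, and without old IL27RA- replicate 3, 1 was called lower. The list's smallest p belonged to feedback inhibitors of cytokine signalling. Socs2 had 1276, 561 and 1354 in young and 61.0, 29.7 and 23.4 in old libraries (-4.78 ± 1.26, adjusted p = 0.159). Socs3 had 120.3, 60.2 and 285 against 578, 1639.9 and 772 (2.81 ± 1.01, adjusted p = 0.401). The groups of both genes were apart, in opposite directions, with errors above 1 log2 unit.

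Of 38 antioxidant and detoxifying enzymes tested, 3 were called higher (Aldh1a1, Gstm2 and Gpx8) and 0 lower, where 0.346% of all genes were called higher. All 3 also passed in the 6-library fit and with voom, and the list's median was 0.28. Without old replicate 1, 2 or 3 the list's count was 1. Gstm2, a mu class glutathione transferase, rose from 166, 125 and 86.5 to 1659, 1686 and 1227 (3.62 ± 0.54, adjusted p = 0.0115). Gstm7, a close paralog beside it on chromosome 3 with 1 tested gene between them, rose by 1.95 ± 0.38, and reads of such similar genes may be split between them. Outside this list, Gda, which turns guanine into xanthine, rose from 1094, 722 and 571 to 2562, 3625 and 2968 (1.98 ± 0.35). Xdh, which oxidises xanthine to urate in the next step, rose from 248, 149 and 33.9 to 858, 815 and 762 (2.89 ± 0.56, adjusted p = 0.0425). Gda passed in the 6-library fit (adjusted p = 0.0467), and Xdh did not (0.178). Gda lies near Aldh1a1 on chromosome 19, with 2 tested genes between them.

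Of 25 platelet and megakaryocyte genes tested, 2 were called higher and 0 lower, where 0.346% and 0.0747% of all genes were. The count was 0 without old replicate 1, 2 or 3, young replicate 2 or 3 or old IL27RA- replicate 2 or 3, 1 without young replicate 1, and 4 without young IL27RA- replicate 3. Their median difference was 0.70, and 20 of the 25 differences were positive. Vwf, the von Willebrand factor of platelets and endothelium, rose from 1062, 939.7 and 924 to 1919, 2122 and 2832 (1.21 ± 0.23, adjusted p = 0.0358). Sdpr, whose current name is Cavin2 and which shapes caveolae, rose from 1343, 1426 and 377 to 4866, 7569 and 8868 (2.94 ± 0.56, adjusted p = 0.0391). Both are also on the aged stem cell list, and neither passed in the 6-library fit (0.093 and 0.0694). Plek, the platelet kinase substrate pleckstrin, had 399, 257 and 737 against 1588, 2726 and 2948 (2.46 ± 0.54, adjusted p = 0.0661). The chemokine Ppbp and the tubulin Tubb1, which mature platelets hold, were low at both ages, with 56.4, 44.3 and 53.9 against 3.70, 0 and 60.9 and 23.5, 26.1 and 2.51 against 0, 0 and 19.9.

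Cyclin D1 (Ccnd1), which drives entry into the cell cycle, rose from 379.7, 358 and 972 to 2362, 1796 and 1904 (1.98 ± 0.38, adjusted p = 0.0402, 0.119 in the 6-library fit). Cyclin D2 (Ccnd2) had 7422, 6199.7 and 7425 against 5132, 4610.4 and 4138 (-0.60 ± 0.20, adjusted p = 0.347), in the other direction and with no overlap. The survival kinase Pim2 rose from 803, 957 and 460.2 to 3162, 2932 and 2662 (2.04 ± 0.34). Gadd45g, a gene induced by DNA damage, rose by 2.75 ± 0.41, Ndrg1 by 2.04 ± 0.39 and Vmp1, a membrane protein of autophagy, by 1.55 ± 0.29. The small GTPase Gem rose by 3.11 ± 0.63, the neural gene Npdc1 by 1.39 ± 0.22, and D14Ertd668e, now named Phf11d and 1 of several close copies, by 4.50 ± 0.78. In the 6-library fit the adjusted p was 0.178 for Gem, 0.0638 for Npdc1 and 0.130 for D14Ertd668e.

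None of 42 cell cycle genes passed the test, although 40 of the differences were positive and the list's median was 0.79. Young replicate 3 was low for these genes. Its summed cell cycle level was 21723 normalized counts, against 49690 and 60229 in young replicates 1 and 2 and 48852 to 65020 in the old libraries. Without young replicate 3 the median was 0.20, with 30 of 42 positive, and without young replicate 2 it was 1.32. E2f2, a transcription factor of S phase genes, came nearest, with no read in young libraries and 98.0, 71.8 and 189.8 in old ones (6.80 ± 1.51, adjusted p = 0.0759).

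Of 16 myeloid granule and factor genes tested, 1 was called, where 0.421% of all genes were. The list's median was -0.36, or 0.10 without old replicate 2. Prtn3, the serine protease proteinase 3, rose from 3779.6, 4395 and 5140.4 in young to 9711, 10528 and 7609 in old cells (1.06 ± 0.21, adjusted p = 0.0451, 0.093 in the 6-library fit). Mpo, myeloperoxidase of the same granules, had 27.3, 101 and 79.0 in young libraries and 0 reads in every old one. Its difference of -5.94 ± 1.24 had an adjusted p of 0.0536, just outside the threshold. Hp, haptoglobin, had 34.8, 64.8 and 48.9 against 0 reads in old libraries (-5.61 ± 1.21, adjusted p = 0.0625). Neither Mpo nor Hp had a read in any IL27RA- library, young or old.

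**Figure D2:**
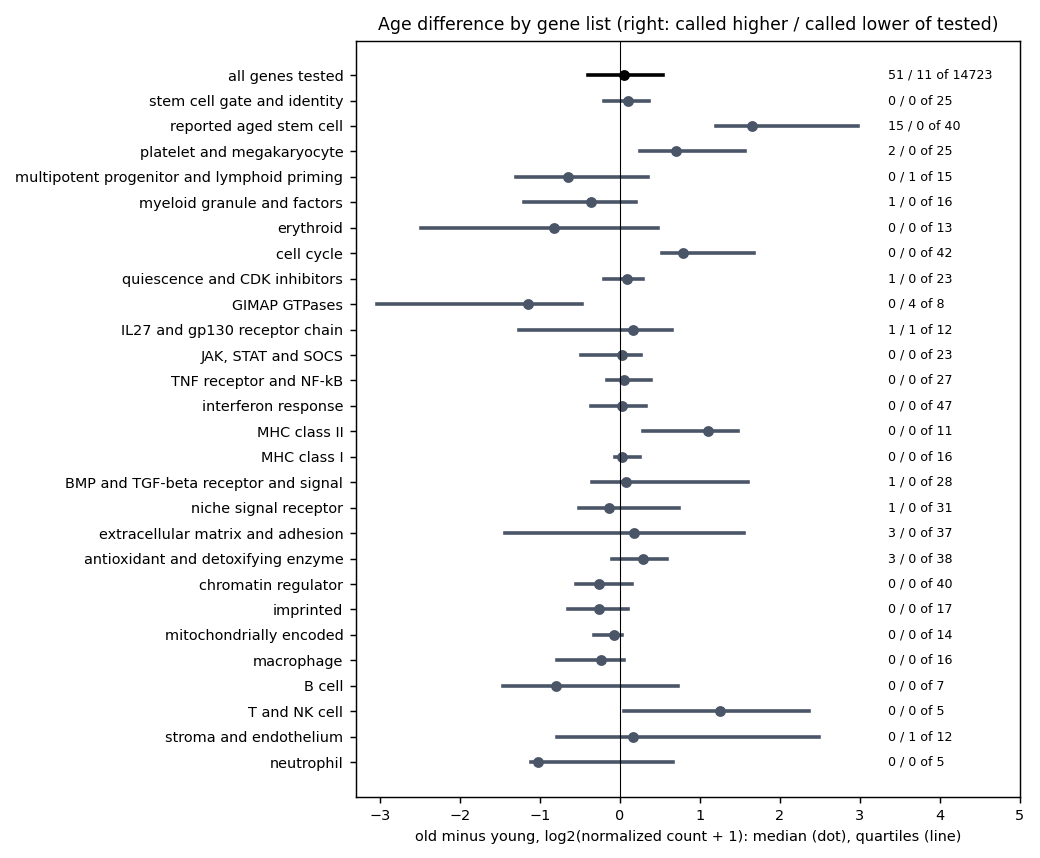
The difference between old and young IL27RA+ cells for each gene list, as the median (dot) and quartiles (line) over its tested genes on the log2(normalized count + 1) scale, with the number called higher, called lower and tested at the right. The aged stem cell list lies furthest to the right, with a median of 1.65, the GIMAP list furthest to the left, with -1.16, and all genes at 0.05.

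GTPases of immunity-associated proteins (GIMAPs) are small membrane-bound GTPases known for the survival of T lymphocytes. Their genes lie in 1 cluster on mouse chromosome 6, and 5 of the 11 lower genes lie in it. The cluster holds 9 of the 14723 genes tested. The list had 9 members, of which 8 passed the filter, and it was chosen with earlier results of these data known. All 8 had negative differences, 4 were called lower (0.0747% of all genes were), and the list's median was -1.16. For 7 of the 8 every old library lay below every young one (7.8% of all genes did). The list's count of called genes was 3, 1 and 2 without young replicates 1, 2 and 3, and 1, 0 and 0 without old replicates 1, 2 and 3. Of the 5 called genes in the cluster, 3 passed in the 6-library fit and 1 with voom.

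The sequences before the start sites of the 4 called GIMAP genes and of Ebi3 are shown because the GIMAP genes are neighbours that fell together and Ebi3 had the smallest p of the lower genes. Each is the 250 bases upstream of the start site on the gene's own strand, from RefSeq on GRCm38.p6. Capitals mark exact matches, on either strand, to TGTGGT (the core bound by RUNX factors) or CGGAAG (an ETS core); the reverse strand forms are ACCACA and CTTCCG.
Gimap4, chr6:48684328-48684577, plus strand: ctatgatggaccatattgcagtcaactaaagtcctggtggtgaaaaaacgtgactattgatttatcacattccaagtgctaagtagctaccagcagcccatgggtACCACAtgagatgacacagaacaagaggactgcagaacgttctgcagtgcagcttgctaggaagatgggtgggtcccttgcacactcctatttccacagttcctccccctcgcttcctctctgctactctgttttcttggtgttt
Gimap6, chr6:48708245-48708494, minus strand: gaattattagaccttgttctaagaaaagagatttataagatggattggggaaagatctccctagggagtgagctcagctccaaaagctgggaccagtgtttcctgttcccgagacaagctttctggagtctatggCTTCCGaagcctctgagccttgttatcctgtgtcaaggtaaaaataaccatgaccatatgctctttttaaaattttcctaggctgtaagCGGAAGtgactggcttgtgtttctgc
Gimap7, chr6:48718371-48718620, plus strand: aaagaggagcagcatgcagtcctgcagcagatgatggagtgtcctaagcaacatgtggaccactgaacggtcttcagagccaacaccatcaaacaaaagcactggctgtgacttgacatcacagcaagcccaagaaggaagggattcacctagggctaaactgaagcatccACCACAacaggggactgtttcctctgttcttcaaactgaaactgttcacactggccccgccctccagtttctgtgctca
Gimap3, chr6:48770852-48771101, minus strand: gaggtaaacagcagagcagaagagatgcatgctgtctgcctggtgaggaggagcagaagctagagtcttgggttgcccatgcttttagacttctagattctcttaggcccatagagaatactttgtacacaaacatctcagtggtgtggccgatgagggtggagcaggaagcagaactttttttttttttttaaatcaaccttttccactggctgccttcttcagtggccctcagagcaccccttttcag
Ebi3, chr17:55952373-55952622, plus strand: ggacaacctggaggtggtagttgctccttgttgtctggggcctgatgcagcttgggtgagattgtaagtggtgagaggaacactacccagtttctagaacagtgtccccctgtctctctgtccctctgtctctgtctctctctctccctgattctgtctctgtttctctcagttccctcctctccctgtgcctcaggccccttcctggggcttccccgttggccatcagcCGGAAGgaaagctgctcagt

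Gimap4 and Gimap7 each held 1 RUNX core, which began 145 and 79 bases before the start site. Gimap6 held 2 ETS cores, at 115 and 26 bases, Ebi3 held 1 at 20 bases, and Gimap3 held none of these letters in its window. Promoters were matched for 9 of the 11 lower and 29 of the 51 higher genes. The RUNX core stood in 2 of the 9 (22.2%), in 4 of the 29 (13.8%) and in 14.2% of all 27025 promoters of the table. The ETS core stood in 3 of 9 (33.3%), 5 of 29 (17.2%) and 13.8%. Cores for GATA factors (AGATAA) and AP-1 (TGACTCA) stood in 1 and 0 of the 9, in 3 and 1 of the 29, and in 10.3% and 4.43% of all promoters. The windows of the 4 GIMAP genes held 1 to 3 CpG dinucleotides each, against a median of 6 over all promoters and 8 over the higher genes. These are matches of letters in a window and not measurements of binding.

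Of the GIMAP genes, Gimap7 fell the furthest. It had 109, 229.5 and 228 normalized counts in the young libraries and 0.924, 0 and 0 in the old, which is 1 read in all. The ratio of young to old was 543, with a counting interval of 97.1 to 21508, and the difference was -7.18 ± 1.15 (SE), with an adjusted p of 0.0144. No old library held more than a trace. Gimap4 fell from 1213, 753 and 717 to 159.9, 118 and 102 (-2.79 ± 0.44, adjusted p = 0.0133). Gimap3 fell from 581, 1577 and 1378 to 147, 74.7 and 44.5 (-3.76 ± 0.74, adjusted p = 0.0425, 0.065 in the 6-library fit). Gimap3 and Gimap5 are close paralogs, so their reads may be split between them.

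Gimap6 fell less and with little spread, from 6109, 6264 and 5613 to 2679, 2263 and 2631 (-1.25 ± 0.21, adjusted p = 0.0184). Gm3345, whose current name is Gimap1os and which runs opposite to Gimap1, went from 2345, 3561 and 1881 to 872, 897 and 793 (-1.55 ± 0.28); it is a predicted symbol outside the naming rule. The counting is not stated to use strand, so any reads where Gm3345 overlaps Gimap1 cannot be assigned by strand. Gimap1 itself had 8106, 6068 and 7602 against 5780.0, 5702 and 5792 (-0.32 ± 0.19, adjusted p = 0.684). Gimap5 (-0.52 ± 0.23, adjusted p = 0.527) and Gimap8 (-1.06 ± 0.36, adjusted p = 0.368) missed the threshold without overlap. Gimap9, between Gimap8 and Gimap4, had overlapping groups and a difference of -0.06 ± 0.29.

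The called genes Gimap4, Gimap6, Gimap7 and Gm3345 lay side by side, with no tested gene between them. Gimap3, also called, lay beyond Gimap1 and Gimap5, which missed the threshold. In map order the 9 tested genes of the cluster are Gimap8, Gimap9, Gimap4, Gimap6, Gimap7, Gm3345, Gimap1, Gimap5 and Gimap3. None of the 4 nearest tested genes on either side was called. Tmem176a, the second beyond Gimap3, differed the other way, with 3015, 2789.6 and 3328 in young and 5504, 5431 and 3784 in old libraries (0.67 ± 0.20, adjusted p = 0.272).

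**Figure D3:**
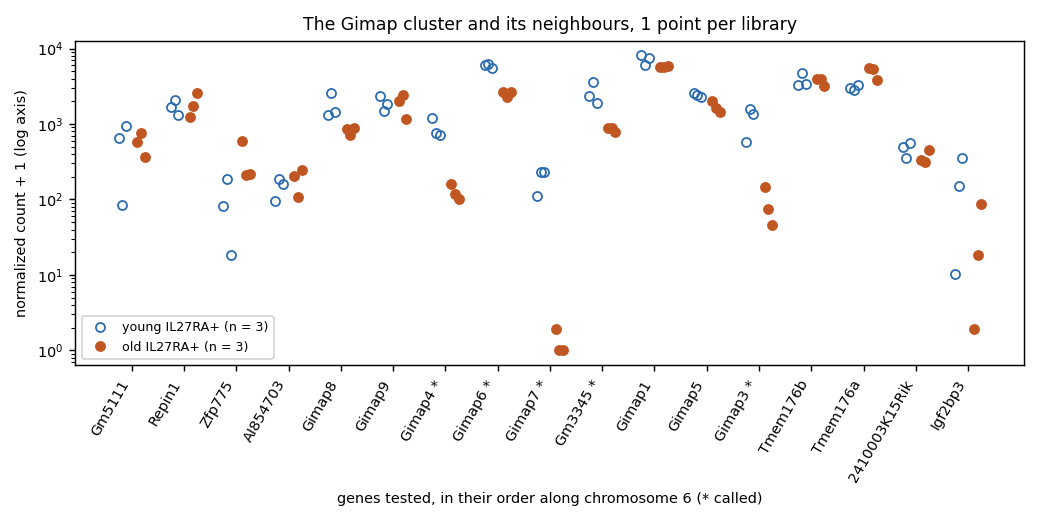
Normalized count + 1 (log axis) of the Gimap cluster and the 4 nearest tested genes on each side, in their order along chromosome 6, with open points for young and filled points for old libraries and * for called genes. Gimap4, Gimap7 and Gimap3 show the widest gaps, Gimap9 and Gimap1 lie close, and 2410003K15Rik has the current name Malsu1.

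T and NK cells also express GIMAP genes. Of 18 markers of these cells 5 were tested, and none was called. The summed level of the 10 markers with deposited values was 330 to 587 normalized counts in young and 837 to 1949 in old libraries. The NK receptor gene Klrb1c had 195, 192 and 105 in young and 583, 682 and 1387 in old libraries (2.37 ± 0.87, adjusted p = 0.424). The 11 B cell markers with deposited values summed to 2370 to 2843 in young and 1867 to 2436 in old libraries, and none of 7 tested was called. The part of these cells in the results was not tested.

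Cxcl12, the chemokine by which marrow stroma holds stem cells, had 409, 81.8 and 167 normalized counts in the young and 0, 0.958 and 0 in the old libraries. The old libraries held 1 read in all, and the ratio of young to old was 696, with a counting interval of 124 to 27518 (-7.16 ± 1.25, adjusted p = 0.0238). The 6-library fit gave 0.0659, and no fit that left out 1 of the 6 libraries called it. Of 12 stroma and endothelium markers tested Cxcl12 was the only 1 called, where 0.421% of all genes were. The differences were positive for 6 and negative for 6 of the 12. Their median was 0.16 and their quartiles were -0.79 and 2.48. The summed level of the 16 members of that list with deposited values was 4517 to 6363 in young and 3339 to 3460 in old libraries. Nes, a marker of stromal progenitors, had 103, 322 and 238 against 3.70, 0.958 and 0 (-6.58 ± 2.11, adjusted p = 0.317), and Emcn, of endothelium and stem cells, had 1773, 2796 and 1319 against 736, 754 and 715 (-1.35 ± 0.31, adjusted p = 0.082). The leptin receptor Lepr, which defines Cxcl12-rich stroma, was low at both ages, at 28.2, 0 and 12.5 and 77.6, 1.92 and 0. Whether stromal RNA set the Cxcl12 level was not tested.

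The other lower genes have varied roles. Lsp1, an actin-binding protein of leukocytes, fell from 3902, 4039.6 and 4808 to 2461, 1660.0 and 1987 (-1.07 ± 0.21, adjusted p = 0.0451). In the 6-library fit its adjusted p was 0.111. Lsp1 was the 1 called gene of 15 tested multipotent progenitor and lymphoid priming genes, where 0.421% of all genes were called. The list's median was -0.65, or -0.25 without old replicate 2. Flt3, the cytokine receptor of lymphoid-primed progenitors, had 459.6, 903 and 295 against 175, 64.2 and 44.5 (-2.63 ± 0.94, adjusted p = 0.393), and Cd34 had 5486, 2983 and 4750.4 against 2611, 1922 and 2761 (-0.83 ± 0.25, adjusted p = 0.279). Neither pair of groups overlapped. The leukocyte tetraspanin Cd53 differed the other way, with 626, 357 and 622 against 2377, 1097 and 2265 (1.80 ± 0.45, adjusted p = 0.132). Zfp783, named as a zinc finger gene but annotated as a transcribed unprocessed pseudogene, fell from 2545, 3949.8 and 2923 to 955, 761 and 652 (-1.98 ± 0.37). Spata13, an exchange factor for small GTPases, fell by 1.74 ± 0.35, and the ubiquitin ligase gene Neurl3 fell by 1.03 ± 0.21.

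The inflammation and antigen presentation lists held no called gene. Of 47 interferon response genes tested none passed, and the median was 0.02. Ifi47, an interferon-induced GTPase, came nearest, at 4259.9, 4424 and 4009 in young and 9895, 8188 and 8332 in old libraries (1.05 ± 0.23, adjusted p = 0.0625). None of 27 TNF receptor and NF-kB genes passed, with a median of 0.05. MHC class I genes had a median of 0.03, with none of 16 called. MHC class II genes had a median of 1.10, 9 of 11 positive and none called. Their median was 0.57 without young replicate 3, 0.60 without old replicate 3 and 1.54 without young replicate 2. H2-Aa had 2160.0, 3543 and 1067 in young and 7519, 5902 and 8682 in old libraries (1.85 ± 0.49, adjusted p = 0.163). Macrophage markers, which share class II expression, summed to 5173 to 9753 in young and 2319 to 9778 in old libraries.

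The other lists held few called genes. Matn4, Jam2 and Spon1 were called higher among 37 extracellular matrix and adhesion genes tested, where 0.346% of all genes were. The list's median was 0.18. The 6-library fit kept Matn4 and Spon1 and gave an adjusted p of 0.0803 for Jam2. Voom called none of these genes, and no fit that left out 1 of the 6 libraries called Jam2 or Spon1. Alcam, an adhesion molecule of leukocytes and endothelium, came next (935, 1553 and 702 against 2912, 3550.0 and 2476, adjusted p = 0.0569). None of 40 chromatin regulators was called (median -0.26), nor of 17 imprinted genes (-0.26), 14 mitochondrially encoded genes (-0.07) or 13 erythroid genes (-0.82, and -0.37 to -1.90 with 1 library of the 6 left out). Ccnd1 was the only gene called of 23 on the list of quiescence genes and CDK inhibitors (0.08), where 0.421% of all genes were. Markers of neutrophils (5 tested) and of mast cells and basophils (1 tested) held no called gene.

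Old and young cells of the IL27RA- fraction were set beside these. Of the 51 higher genes 50 had the same sign there, and of the 11 lower genes 9 did, while 58.3% of all genes had the same sign in both fractions. In IL27RA- cells all old libraries lay above the young ones for 42 of the 51 (7.8% of all genes) and below them for 6 of the 11 (6.74%). The median difference of the higher genes was 3.11 in IL27RA+ and 2.20 in IL27RA- cells, and that of the lower genes was -1.98 and -0.86. The genes were selected on their IL27RA+ differences, with a filter and a spread that also used the IL27RA- libraries. The shares in IL27RA- cells are therefore not independent of the selection, and a smaller median there is no comparison of the fractions.

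The difference between the age differences of the 2 fractions was called for 0 of 14723 genes (0.0%) by limma and for 0 by voom, and 762 genes had an unadjusted p under 0.05. It was called for 5, 2, 1 and 1 genes without young IL27RA- replicate 1, young IL27RA- replicate 3, young IL27RA+ replicate 1 and old IL27RA- replicate 3, and for 0 without each other library. The smallest adjusted p was 0.165. It belonged to Guca1b, which in IL27RA- cells had 35.0, 17.2 and 191 in young and 0, 1.04 and 0 in old libraries, the opposite of its values in IL27RA+ cells (12.04 ± 1.93). The same adjusted p was reached by Ncaph, a condensin subunit, at 377, 545 and 107 in young and 505, 459.8 and 493 in old IL27RA+ libraries and 93.9, 211 and 268 and 0, 0 and 1.26 in IL27RA- ones (7.86 ± 1.29). Cxcl12 had no read in any IL27RA- library, and its test of the difference gave an adjusted p of 0.742. Gimap7 was low in old cells of both fractions, with 121, 71.6 and 72.7 in young and 0, 0 and 0 in old IL27RA- libraries. Ebi3 had 1506, 1826 and 1566 against 516, 391 and 313 there, with no overlap. Matn4 had 54.9, 0 and 94.0 in young and 1066, 818 and 1747 in old IL27RA- libraries, and Bmpr1a 76.4, 285 and 6.44 and 428, 509.6 and 235.

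**Figure D4:**
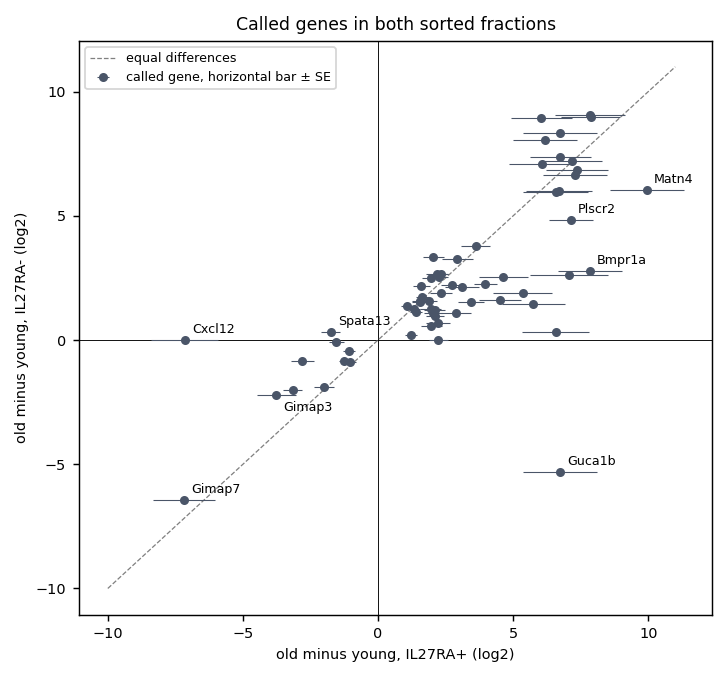
Each point is 1 of the 62 called genes, with its old minus young log2 difference in IL27RA+ cells on the horizontal axis (bars are SE) and in IL27RA- cells on the vertical axis. Points lie in the same direction in both fractions for 50 of 51 higher and 9 of 11 lower genes, and Guca1b, Spata13 and Cxcl12 are the exceptions.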

How the data were processed

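The submitters' processing notes list FastQC 0.11.5 and TopHat2 2.1.1, and also HTSeq and DESeq2, without saying what each was used for. No source used here names a genome build. The deposited table gives log2 values. Judged from the numbers, the authors took a gene's reads over the library's size factor, added 1 and took log2. Undoing this returned whole reads for 100.0% of entries (tolerance 0.001 reads). The table has 20473 lines; 1 damaged line (Mtbp, which shifts a foreign value into 1 IL27RA- column) and 15 repeated lines were dropped, and 21 gene names stored as dates were put back. Identifiers of 19007 of the remaining 20457 genes (92.9%) matched GENCODE M21, which supplied names, biotypes and gene order.

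A gene was tested if 3 or more of the 12 libraries had at least 10 normalized counts. Limma 3.58.1 (R 4.3.3) was run with a variance trend and 1 mean per group (8 residual and 6.62 prior degrees of freedom; 4 and 4.38 in the fit on the 6 libraries alone). Adjusted p are Benjamini-Hochberg over all 14723 genes. Libraries of the same age correlated with r of 0.882 to 0.923, so no library repeated another. The fit was tested on simulated data. For old IL27RA- replicate 1 a source label reads young against its title and age; it enters the filter, the spread and the IL27RA- values.

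Named genes were Il27ra, Ebi3, called genes whose groups did not overlap, and for each described list its called members and up to 4 with the smallest p, predicted symbols being counted only; 2 called genes are counted but not reported by name here. Other named genes (Gm3345, Gm106, further list members and neighbours of the Gimap cluster) were chosen after their values were seen. The comparison and the lists were chosen with earlier results of these data known. Alternatives were the 6-library fit, other filters, pseudocount, scalings, voom, array weights, a replicate block and each library left out in turn.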

Additional observations from a re-analysis of the deposited data

How the results depend on the processing

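The count of 62 genes (51 higher, 11 lower) was 37 (26 and 11) in the 6-library fit, 13 (11 and 2) with voom and 137 (115 and 22) with array weights, which kept all 62. A pseudocount of 10 gave 92 (74 and 18), and testing every gene with a read gave 46 (33 and 13). Leaving out 1 library gave 4 to 97 genes, 3 to 83 higher and 1 to 14 lower; the libraries that moved it most are named in the report. For the difference between the fractions, the range over left-out libraries was 0 to 5 and every other setting gave 0. Other filters gave 53 and 66, and scaling by total reads or by the upper quartile 53 and 59. Il27ra stayed uncalled in every fit, with differences of 0.12 to 0.36 over left-out libraries. Of the 62 genes, 9 were called in all 10 other settings: Aldh1a1, Clca1, Ebi3, Zg16, Fhl1, Gstm2, Rcvrn, Gimap7 and Gpx8. The cause of these changes was not tested, and each left-out fit had 1 library fewer.

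With the replicate number as a block, 43 genes were called (34 higher, 9 lower), 39 of them among the 62, none for the difference between the fractions, and the Il27ra difference was 0.26. Same-numbered old and young IL27RA+ libraries did not deviate together, with correlations of 0.00, -0.01 and -0.02 across genes. Whether IL27RA+ and IL27RA- libraries of the same age and number belong together was not tested. Depth limits genes near the floor of 3 reads, where 17 of the higher and 2 of the lower genes had a mean under 10 normalized counts in the lower group.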
